A study of Bos grunniens x Bos taurus and Bos grunniens with 6 samples.

Results

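The ubiquitin precursors UBB and RPS27A and the ubiquilins UBQLN1, UBQLN2, UBQLN4 and UBQLNL were followed in testis tissue of cattle-yak and yak. The members were taken by gene symbol, ignoring case, which gave 8 genes under 6 symbols out of 18918 genes in the table. RPS27A and UBQLN1 each stand on 2 gene identifiers, and every identifier was kept as a gene of its own. RNA-seq had been run on 3 cattle-yak (TES5, TES6 and TES7) and 3 yak (Yak8, Yak9 and Yak10), with 1 library per animal. The cattle-yak were sterile F1 males of a Jersey sire and a Gannan yak dam, the yak were Gannan males, and all were 4 years old. The groups were kept in different counties, and the cattle-yak were castrated whereas the yak were euthanized, so place and collection cannot be told apart from the cross. Reads of both groups were mapped to the yak genome, although cattle-yak carry a cattle allele of each autosomal gene. The symbols were selected on their FPKM in these same 6 animals, that is with the difference between the groups known, so their values are given as a description and without a test.

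Ubiquitin is a small protein that is attached to other proteins, mostly to send them to the proteasome. It is never made as a free monomer: UBB encodes a chain of ubiquitin units joined head to tail, and RPS27A encodes 1 unit fused to a ribosomal protein. Ubiquilins carry a ubiquitin-like domain that binds the proteasome and a ubiquitin-associated domain that binds ubiquitin chains, and so act as shuttles and chaperones for proteins bound for degradation. UBQLN1, UBQLN2 and UBQLN4 are expressed in many tissues, whereas UBQLNL is known as a testis gene. Spermatids remodel their chromatin and shed most of their cytoplasm, processes in which ubiquitin is used heavily.

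The values were FPKM, that is fragments per kilobase of gene model, scaled to the depth of the library. They rested on 11175100 to 11834987 fragments on genes in cattle-yak and on 12991641 to 13136129 in yak. Differences between the groups are log2 ratios of cattle-yak over yak, from limma on log2 (FPKM + 1) in the 15042 genes with a mean of at least 0.5 FPKM. A gene was called when its adjusted p was under 0.05 and its log2 ratio beyond 1, whichever the sign. The median over all tested genes was 0.51, and it became 0.01 with size factors from medians of ratios. In whole tissue, fewer cells of a type and less RNA per cell cannot be told apart.

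The members went in 3 directions. UBQLN2, UBQLN4 and the more abundant RPS27A gene were higher in cattle-yak, the second UBQLN1 gene and UBQLNL were nearly missing there, and UBB and the main UBQLN1 gene lay within a 2-fold range. Of the 8 genes, 7 passed the minimum level. Since the members were selected on this difference, their place against the thresholds is a description and no test: 3 lay past both as higher and 2 as lower. The background over all tested genes was 33.4% higher and 20.8% lower, together 54.2%. With median-of-ratios scaling 2 members were past both thresholds as higher and 3 as lower, beside a background of 17.7% and 27.7%. In all 7 genes the groups did not overlap, as in 84.1% of all tested genes.

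**Figure D1:**
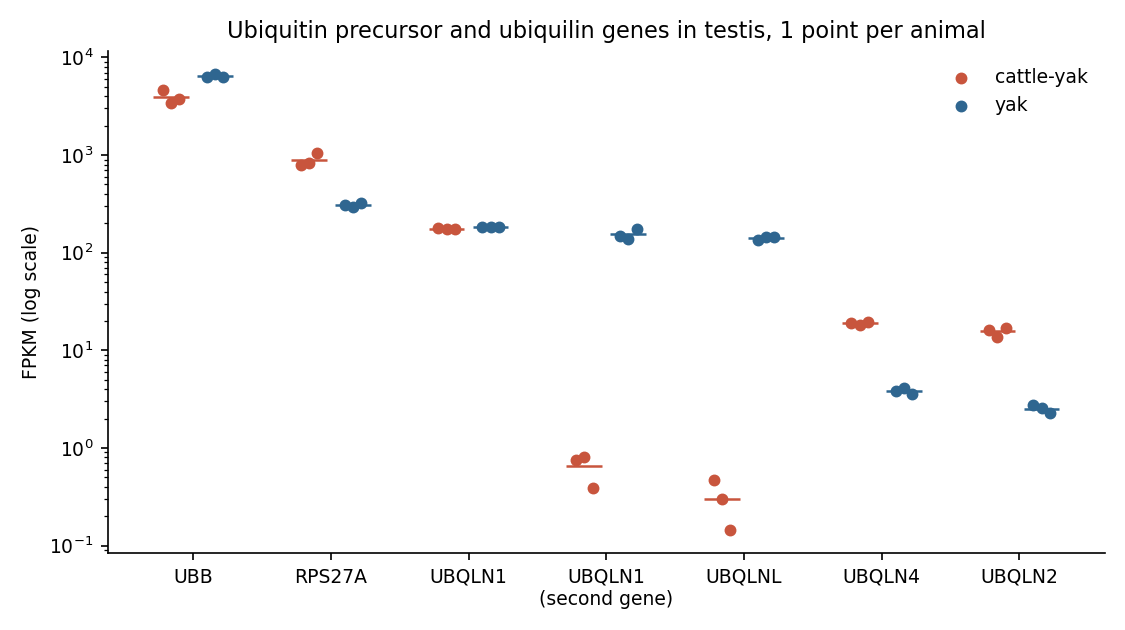
FPKM (log axis) of the 7 genes above the minimum level, with 1 point per animal in cattle-yak (red) and yak (blue) and a line at the mean of each group. The second UBQLN1 gene and UBQLNL lie below 1 FPKM in the 3 cattle-yak and above 130 in the 3 yak, while the main UBQLN1 gene is near 180 in all 6 animals.

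UBB (ENSBGRG00000012258), the polyubiquitin gene, was among the most abundant transcripts of the testis in both groups. It had 4659 FPKM in TES5, 3424 in TES6 and 3786 in TES7, against 6297 in Yak8, 6832 in Yak9 and 6343 in Yak10. Every cattle-yak thus lay below every yak, with TES5 the closest to them. The means were 3956 ± 635 (SD, n = 3) and 6491 ± 296 (SD, n = 3), which made UBB 1.64-fold lower in cattle-yak, with a log2 ratio of −0.73 (standard error 0.14). Among all genes it ranked 6 in each cattle-yak library, and 1, 1 and 2 in the yak libraries. It held 0.785%, 0.590% and 0.626% of the summed FPKM in TES5, TES6 and TES7, and between 1.04% and 1.14% in yak. The cattle-yak animals varied more, with a coefficient of variation of 16.1% against 4.57% in yak. With 26398 to 61777 fragments per library, counting error was a small part of this spread, at 0.563% and 0.413%. Under median-of-ratios scaling UBB passed the fold threshold, at −1.34.

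RPS27A (ENSBGRG00000017422) encodes ubiquitin fused to a protein of the small ribosomal subunit, so that each transcript supplies both. It had 787, 837 and 1058 FPKM in TES5, TES6 and TES7, against 306, 295 and 326 in Yak8, Yak9 and Yak10. Every cattle-yak lay far above every yak, and TES7 was the highest. The means were 894 ± 144 (SD, n = 3) and 309 ± 16 (SD, n = 3), a 2.89-fold higher level in cattle-yak and a log2 ratio of 1.52 (standard error 0.13). It ranked between 47 and 59 in the cattle-yak libraries and between 259 and 298 in those of yak. Under median-of-ratios scaling the log2 ratio was 0.90 and no longer past 1. The second gene with this symbol (ENSBGRG00000004168) was listed at 0 in 5 libraries and had 0.617 FPKM in TES6, so it was under the minimum level and was not compared.

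The ratio of the precursors to each other within a library does not depend on how the libraries are scaled. UBB exceeded RPS27A by 5.92, 4.09 and 3.58 times in TES5, TES6 and TES7, and by 20.6, 23.2 and 19.4 times in Yak8, Yak9 and Yak10. The highest cattle-yak ratio was far below the lowest yak ratio. It was 4.53 ± 1.23 (SD, n = 3) in cattle-yak, compared with 21.1 ± 1.92 (SD, n = 3) in yak. UBB made up 81.4% ± 3.79 (SD, n = 3) of the FPKM of both precursors in cattle-yak, compared with 95.4% ± 0.386 (SD, n = 3) in yak, and their sum was 4850 ± 593 against 6800 ± 285 FPKM (SD, n = 3). Because UBB encodes several ubiquitin units per transcript and RPS27A only 1, these sums count transcripts and not ubiquitin. The ubiquitin units of both genes encode the same protein, and reads that map to more than 1 such gene may have been split between them or dropped, so these levels are uncertain to that extent.

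The main UBQLN1 gene (ENSBGRG00000003409) encodes ubiquilin 1, a shuttle between ubiquitinated proteins and the proteasome that also acts in autophagy and in the clearance of proteins from the endoplasmic reticulum. It had 178, 176 and 176 FPKM in TES5, TES6 and TES7, and 184, 183 and 181 in Yak8, Yak9 and Yak10. All 6 animals lay between 175.7 and 183.6 FPKM, with the cattle-yak slightly below the yak. The coefficient of variation over the 6 animals was 1.95%, the lowest of the 15042 tested genes. Within groups it was 0.856% and 0.685%, under the counting error of 1.66% and 1.54% that 3476 to 4269 fragments per library give. The log2 ratio was −0.05 (standard error 0.08). This evenness belongs to the FPKM as deposited: with median-of-ratios scaling the coefficient of variation was 25%, rank 3427 from the lowest, and the log2 ratio −0.66.

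UBQLN2 (ENSBGRG00000008416) and UBQLN4 (ENSBGRG00000022445), both of which also deliver ubiquitinated proteins to the proteasome, were present at a low level in yak. UBQLN2 had 16.3, 13.8 and 17.1 FPKM in TES5, TES6 and TES7, against 2.77, 2.56 and 2.26 in Yak8, Yak9 and Yak10. UBQLN4 had 19.1, 18 and 19.6 FPKM in these cattle-yak, against 3.82, 4.07 and 3.56 in these yak. For both genes every cattle-yak was several-fold above every yak, and the animals within a group were close together. The means of UBQLN2 were 15.7 ± 1.70 and 2.53 ± 0.257 FPKM (SD, n = 3), 6.23-fold higher in cattle-yak, with a log2 ratio of 2.24 (standard error 0.14). Those of UBQLN4 were 18.9 ± 0.777 and 3.82 ± 0.252 FPKM (SD, n = 3), 4.95-fold higher, with a log2 ratio of 2.05 (standard error 0.12). The fold changes on the log scale understate these ratios, since 1 was added to low values. The yak values of UBQLN2 rested on 75 to 93 fragments per library, for which counting error alone gives a coefficient of variation of 10.9%, against 10.2% found.

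UBQLNL (ENSBGRG00000011960), a ubiquilin-like gene of the testis, had 134, 143 and 145 FPKM in Yak8, Yak9 and Yak10. In TES5, TES6 and TES7 it had 0.468, 0.297 and 0.143 FPKM. The cattle-yak values came from 10, 6 and 3 fragments, and the exact 95% Poisson interval of the lowest was 0.62 to 8.77 fragments, which covers counting error only. The mean was 141 ± 5.89 FPKM in yak, compared with 0.303 ± 0.162 in cattle-yak (SD, n = 3), a 465-fold difference with a log2 ratio of −6.77 (standard error 0.13). Its rank among all genes went from 835 to 895 in yak to between 14520 and 15612 in cattle-yak. The size of the log2 ratio depended on the pseudocount, and was −8.53 with 0.1 in place of 1.

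The second gene with the symbol UBQLN1 (ENSBGRG00000011896) carries no description in the table and behaved like UBQLNL, not like the main UBQLN1 gene. It had 150, 137 and 175 FPKM in Yak8, Yak9 and Yak10, close to the level of the main gene in these animals. In TES5, TES6 and TES7 it had 0.758, 0.803 and 0.387 FPKM, from 14, 14 and 7 fragments. The mean was 154 ± 19.2 FPKM in yak, compared with 0.649 ± 0.228 in cattle-yak (SD, n = 3), a 237-fold difference with a log2 ratio of −6.56 (standard error 0.15). Relative to the main gene in the same library it stood at 84.4% ± 11.1 in yak, compared with 0.367% ± 0.129 in cattle-yak (SD, n = 3). Whether the reads of the main and the second gene could be fully separated is not given in the sources used here, so their levels are uncertain to that extent. The values near 0 of the second gene in the cattle-yak, where the main gene had 3476 to 3738 fragments per library, limit how many fragments of the main gene were counted on it there.

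The make-up of the ubiquilin transcripts differed, whatever the scaling of the libraries. The 5 ubiquilin member genes summed to 212 ± 3.24 FPKM in cattle-yak, compared with 484 ± 20.3 in yak (SD, n = 3). In cattle-yak 83.2% ± 0.855 (SD, n = 3) of this came from the main UBQLN1 gene, 8.90% ± 0.267 from UBQLN4 and 7.41% ± 0.711 from UBQLN2. In yak the main UBQLN1 gene gave 37.8% ± 1.80, the second UBQLN1 gene 31.8% ± 2.66 and UBQLNL 29.1% ± 1.16 (SD, n = 3), with 0.791% from UBQLN4 and 0.524% from UBQLN2. No share overlapped between the groups, and the FPKM of 84.1% of all tested genes did not overlap either. The shares of a library depend on each other, so these are not 5 separate results. The share of the main UBQLN1 gene was higher in cattle-yak although its mean was 177 FPKM there and 183 in yak. Per transcript of the main UBQLN1 gene, UBQLN2 stood at 8.91% ± 0.942 in cattle-yak, compared with 1.38% ± 0.132 in yak (SD, n = 3), and UBQLN4 at 10.7% ± 0.425 and 2.09% ± 0.127.

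**Figure D2:**
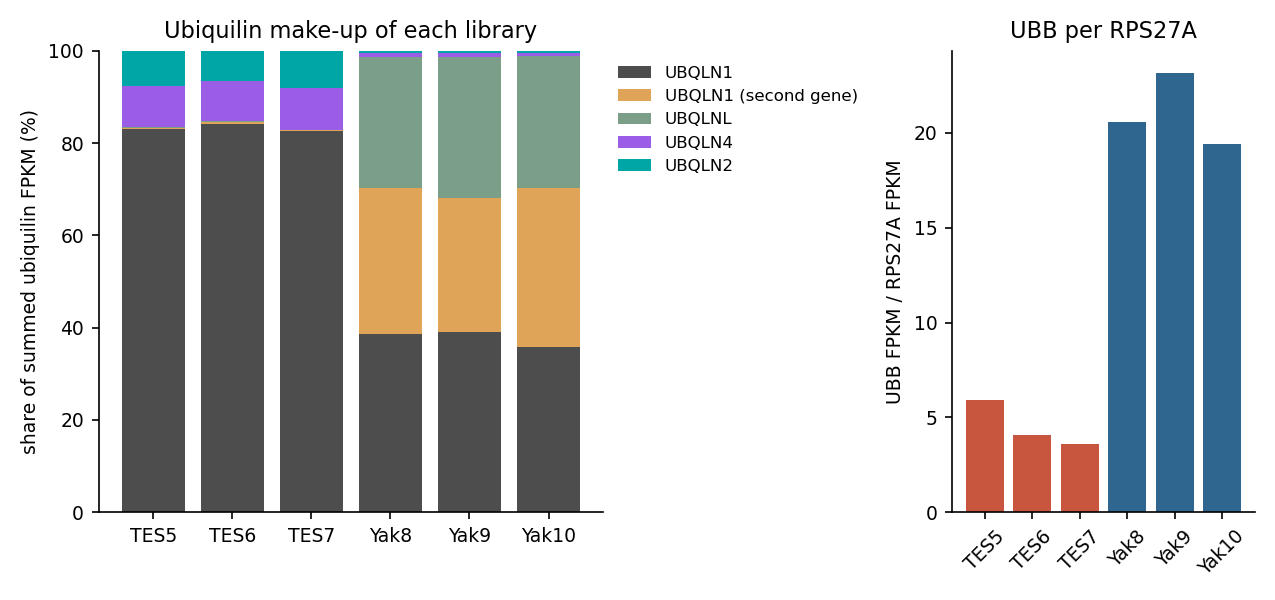
Left, the percentage of the summed FPKM of the 5 ubiquilin member genes that each gene held in each library; right, UBB FPKM divided by RPS27A FPKM in each library (cattle-yak red, yak blue). The main UBQLN1 gene holds 82.5% to 84.2% in the cattle-yak libraries and 35.7% to 39.0% in the yak libraries, and the ratio is at most 5.92 in cattle-yak and at least 19.4 in yak.

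The levels of marker genes of testis cell types moved with these differences. All 5 round spermatid markers in the table and all 6 elongating spermatid markers were called lower, with summed FPKM of 21.7 to 62.2 in cattle-yak against 715 to 746 in yak, and of 18.3 to 85.9 against 9060.2 to 11018. The spermatid markers fell alongside UBQLNL and the second UBQLN1 gene. Markers of Sertoli cells (14 of 14 genes), Leydig cells (8 of 8), myoid cells (7 of 7) and spermatogonia (7 of 8) were called higher, alongside RPS27A, UBQLN2 and UBQLN4. The Sertoli genes stand on 12 symbols and the Leydig genes on 6. These lists leave out WFDC2 and IGFBP3, which the paper names as exceptions among its upregulated Sertoli and Leydig markers. The summed FPKM of the Sertoli list ranged from 3128 to 3454 in cattle-yak, compared with 652 to 731 in yak, with a median log2 ratio of 2.20, and that of the spermatogonia list 349 to 417 and 79.8 to 97.5. Of 9 spermatocyte markers 1 was called higher and 1 lower. Of the endothelial markers 3 of 7 were called higher and 1 lower, and of the macrophage markers 3 of 6 higher and 2 lower. The part of the cell make-up in the values of the members was not tested.

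When each library was centred on its Sertoli markers, RPS27A, UBQLN2 and UBQLN4 were no longer higher by more than 0.08. This scaling lowers the log2 ratio of every gene by the same amount. The log2 ratio was then 0.08 for UBQLN2 and changed sign to −0.12 for UBQLN4 and to −0.64 for RPS27A. UBQLN1 stood at −2.21 and UBB at −2.89 on this scale. The median over all tested genes moved by the same amount, to −1.65. RPS27A, UBQLN2 and UBQLN4 lay above it, and UBB, both UBQLN1 genes and UBQLNL below, as before the centring. A shift common to all genes cannot change this order, so it is no separate result.

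**Figure D3:**
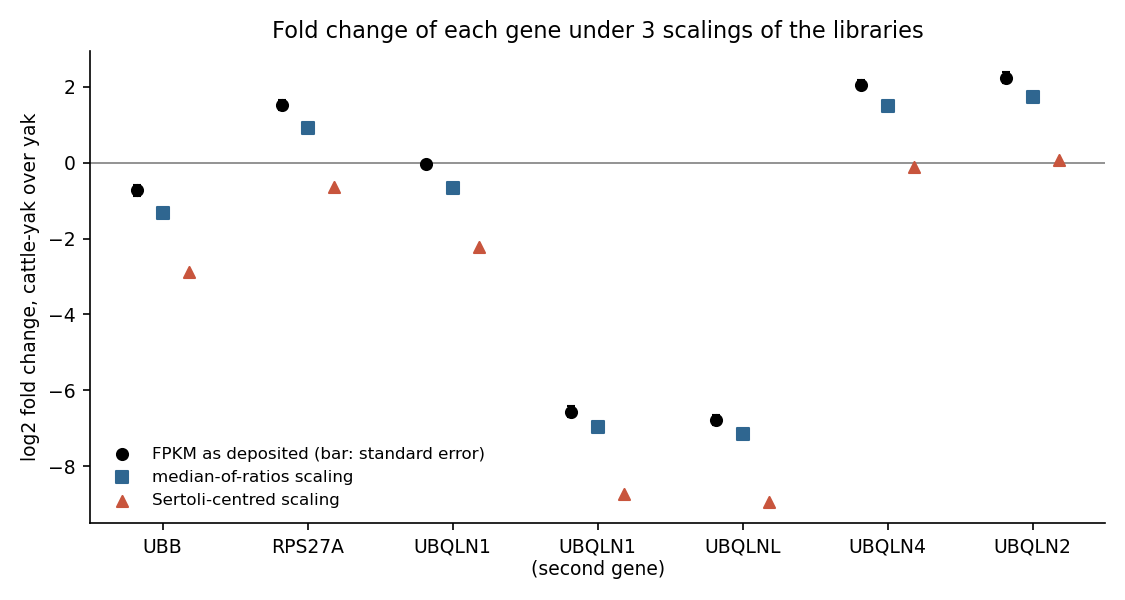
Log2 fold change of cattle-yak over yak for each of the 7 genes with the FPKM as deposited (circles, bars are standard errors), with median-of-ratios scaling (squares) and with the libraries centred on the Sertoli markers (triangles). UBQLNL and the second UBQLN1 gene lie below −6 in all 3, while RPS27A goes from 1.52 to 0.90 and −0.64.

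The rest of the pathway was followed in 13 lists of genes, from ubiquitin activation to the proteins that ubiquilins work with. UBA1, UBE2N, UBE2S, SUMO2, UBL5 and HSPB1, named from them, each have a second gene under the same symbol, so reads that map to both may have been split or dropped. Without the members they held 179 tested genes, of which 64 (35.8%) were called higher and 24 (13.4%) lower. Their median log2 ratio was 0.72. The background over all tested genes was 33.4% higher and 20.8% lower, with a median of 0.51. It applies to the counts of each list below as well. Under median-of-ratios scaling 28 were called higher and 35 lower, beside a background of 17.7% and 27.7%. Of the 157 tested genes annotated to the KEGG pathway ubiquitin mediated proteolysis, which include UBB and RPS27A, 41 (26.1%) were called higher and 23 (14.6%) lower, with a median of 0.18.

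Among the enzymes that start the pathway, UBA1, the main ubiquitin activating enzyme, was higher, with 75.2 ± 1.58 FPKM against 31.4 ± 1.55 (SD, n = 3), at a log2 ratio of 1.24 (adjusted p = 4.4e-06 from limma). Of 39 ubiquitin conjugating enzyme genes 10 were called higher and 6 lower, with a median of −0.07. UBE2N, which builds chains linked through lysine 63 of ubiquitin, was the most abundant of them by the mean over the 6 animals, though not in cattle-yak alone, and lower, with 224 ± 15.0 FPKM against 883 ± 242 (SD, n = 3). UBE2S extends chains for the anaphase-promoting complex. The less abundant gene of this symbol had 23.9 ± 2.87 FPKM against 0.955 ± 0.518 (SD, n = 3), the largest rise in this list, at 3.70. The more abundant UBE2S gene had means of 137 against 169 FPKM, at −0.31, and was not called. The largest fall was that of 1 of 6 genes with the symbol UBE2D3, which was listed at 0 in TES5, TES6 and TES7 and had 52.9, 62.9 and 57.0 FPKM in Yak8, Yak9 and Yak10, and which is uncertain because of its copies. Among 22 genes of ubiquitin-like modifiers 7 were called higher and 1 lower. The 1 lower was UBL4B, a testis gene, with 0.976 ± 0.958 FPKM against 187 ± 54.8 (SD, n = 3), whereas its relative UBL4A had 10.4 ± 1.62 against 3.16 ± 0.213 and was called higher. The most abundant of the modifiers, SUMO2, had a log2 ratio of 0.45, under the fold threshold, and the less abundant UBL5 gene rose most, with 2.18. The more abundant UBL5 gene had means of 363 against 274 FPKM, at 0.40, and was not called.

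The deubiquitinases that cut precursors into ubiquitin and recycle chains had 6 of 11 genes called higher and none lower, with a median of 1.19. UCHL1, an abundant enzyme of spermatogonia and neurons and also 1 of the spermatogonia markers above, had 212 ± 29.8 FPKM against 52.5 ± 5.50 (SD, n = 3). The largest rise was that of USP13, at 2.19. Among the proteasome shuttles and ubiquitin receptors, the functional neighbours of the ubiquilins, 2 of 6 genes were called higher and 2 lower. RAD23B, which carries the same pair of domains as a ubiquilin, had 141 ± 7.55 FPKM against 31.6 ± 0.538 (SD, n = 3), a log2 ratio of 2.13 (adjusted p = 3.4e-07 from limma). The ubiquitin receptors of the proteasome went in both directions. PSMD4 had 309 ± 5.98 against 151 ± 1.69 FPKM (SD, n = 3) and was called higher, whereas ADRM1, named after its values were seen, had means of 47.4 against 156 FPKM and was called lower, at −1.71. DDI1, a shuttle protein known from the testis, had 0.602 ± 0.409 FPKM against 157 ± 9.86 (SD, n = 3), at a log2 ratio of −6.66 (adjusted p = 8.6e-08 from limma).

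Of 11 genes for partners of the ubiquilins 6 were called higher and 3 lower. PSEN2, a presenilin that binds ubiquilin 1, had the largest rise, at a log2 ratio of 2.50. BAG6, which binds ubiquilin 4 and holds mislocalized membrane proteins in the cytosol, was the most abundant by the mean over the 6 animals, though not in cattle-yak alone, and lower, with 210 ± 5.51 FPKM against 431 ± 22.1 (SD, n = 3) and −1.03. In the list of tail-anchored protein targeting, to which BAG6 also belongs, 3 of 5 genes were called lower and 1, UBL4A, higher, and SGTA had the largest fall, at −1.75. Of the 4 autophagy receptors only NBR1 was called, with 55.0 ± 1.75 FPKM against 204 ± 9.78 (SD, n = 3) and −1.87, while SQSTM1 had 0.85, under the fold threshold. VCP, the segregase that unfolds ubiquitinated proteins, had 0.89, also under it, and of the 10 genes of its list 2 were called higher, UBXN7 most, and 3 lower, UBXN6 most.

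Polyubiquitin genes are classical targets of the heat shock response, so its factors and chaperones were listed too. Of 13 genes 7 were called higher and 3 lower, with a median of 1.13. HSPB1 had the largest rise, at 2.79, and HSPA1L, an HSP70 gene of spermatids, the largest fall, with 4.13 ± 1.64 FPKM against 263 ± 24.8 (SD, n = 3). HSP90AA1, the most abundant of them by the mean over the 6 animals, was not called (0.31, adjusted p = 0.12 from limma). In cattle-yak HSPA8, also named after its values were seen, was above it, with a mean of 1288 FPKM against 256 in yak. UBB had a log2 ratio of −0.73, and the median over all tested genes was 0.51. The part of the heat shock response in the level of UBB was not tested.

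For RPS27A the small subunit ribosomal proteins give the nearest comparison. Of 57 genes under these symbols 23 (40.4%) were called higher and 2 (3.51%) lower, with a median log2 ratio of 0.94. Among all tested genes 33.4% were called higher and 20.8% lower. With only the most abundant gene of each of 28 symbols, 10 were called higher and 1 lower, and the median was 0.90, against 1.52 for RPS27A. The list summed to between 17118 and 21213 FPKM in cattle-yak, and to between 9599.7 and 10712 FPKM in yak. Its most abundant gene by the mean over the 6 animals, RPS29, had 2146 ± 146 FPKM against 1013 ± 153 (SD, n = 3). Several of these symbols stand on more than 1 gene, among them the genes with the largest rise (RPS27, 3.51) and fall (RPS4X, −1.56), and reads of near-identical copies may have been split between them or dropped.

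**Figure D4:**
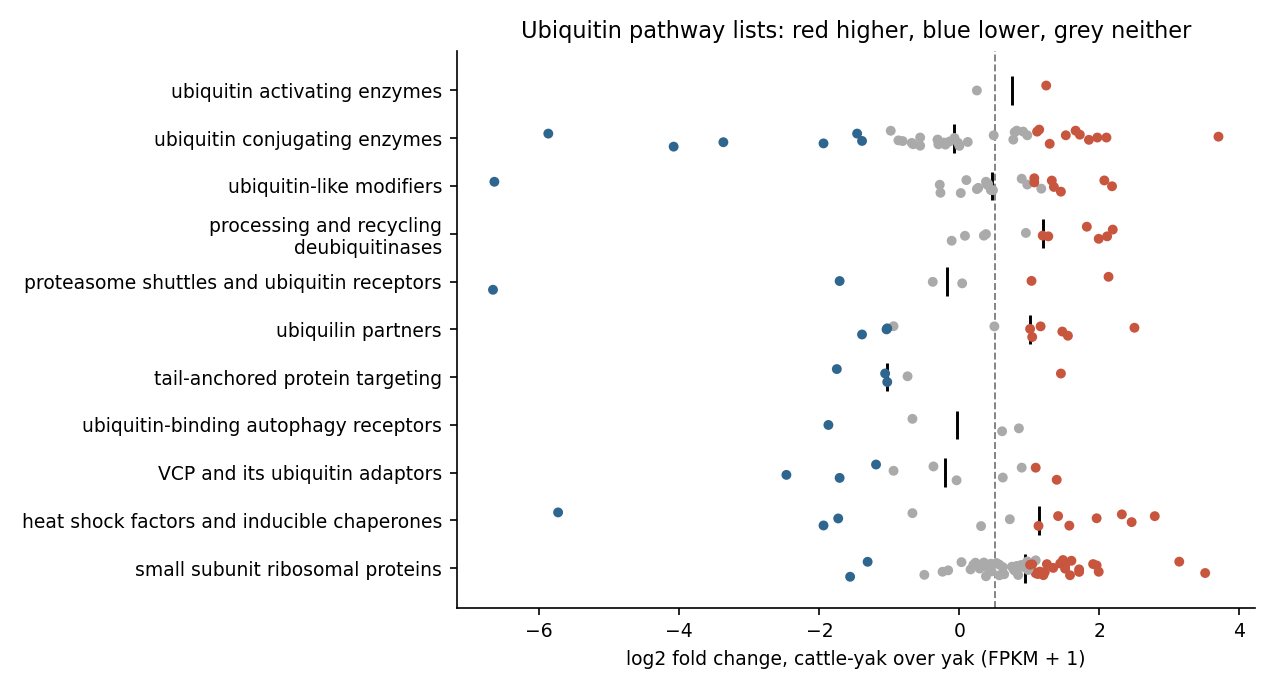
Log2 fold change of cattle-yak over yak of each tested gene in 11 of the pathway lists (red called higher, blue called lower, grey neither), with a black line at the median of each list and a dashed line at the median of all tested genes, 0.51. The deubiquitinases and the ribosomal proteins lie to the right, with medians of 1.19 and 0.94, and single genes such as DDI1 and UBL4B lie below −6.

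The genes most like each member were taken as those whose log2 (FPKM + 1), centred on its mean over the 6 animals, had the smallest root mean square difference from it. For UBQLNL these were ADAM20 (0.122), SPATA19 (0.139) and DDI1 (0.150), and for the second UBQLN1 gene PDILT (0.083), SPATA19 (0.089) and TEX43 (0.114). All 5 of these genes were below 1 FPKM in the cattle-yak mean and above 100 in the yak mean. Of 15041 genes, 15 and 14 lay within 0.2 of UBQLNL and of the second UBQLN1 gene. Within the same distance were 667 genes for UBB, 1198 for RPS27A, 1488 for the main UBQLN1 gene, 405 for UBQLN2 and 754 for UBQLN4. The closest to UBB was SERPINB6 (0.035), then ZNF45 and SEH1L, and to RPS27A it was RPAP3 (0.041), then MRPL44 and ZMAT2. The main UBQLN1 gene had THAP4, SP1 and SWT1 as its closest, UBQLN2 had STMP1, ECHDC1 and RBM43, and UBQLN4 had CLTB, GAS7 and RMDN1. Over 6 animals in 2 groups such likeness is mostly that of the group difference. Only genes with a difference of similar size are counted within 0.2, so the counts do not tell how common lower levels in cattle-yak were. Lower log2 ratios than those of UBQLNL and of the second UBQLN1 gene were found in 0.419% and 0.618% of all tested genes.

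The annotation deposited with the table also separated the members. UBQLN1, UBQLN2 and UBQLN4 carried the KEGG terms protein processing in endoplasmic reticulum and amyotrophic lateral sclerosis. UBQLNL had no GO or KEGG term, and the second UBQLN1 gene had 19 GO terms and no KEGG term, against 30 GO terms for the main gene. UBB and both RPS27A genes shared ubiquitin mediated proteolysis and mitophagy, and the RPS27A genes also had the term ribosome. The gene model lengths that follow from the FPKM were 690 bases for UBB, 753 for RPS27A, 1770 for the main and 1560 for the second UBQLN1 gene, and 1806 for UBQLNL. Each of these is a multiple of 3, as are 53.0% of the lengths of all genes, whereas the 2560 bases of UBQLN2 and the 3565 of UBQLN4 are not. An FPKM over a model that lacks untranslated regions leaves out the fragments that fall there, which bears on levels compared between genes and not on 1 gene compared between animals.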

How the data were processed

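Testis RNA of 3 cattle-yak and 3 yak was sequenced as stranded mRNA libraries of 150 bp paired-end reads. According to their methods, the authors used Trimmomatic on the reads, mapped to LU_Bosgru_v3.0 with HISAT2, computed FPKM with Cufflinks and counted with HTSeq. The FPKM values deposited by the authors carry no scaling between libraries beyond depth. Since they came out as whole fragments, it is uncertain which tool produced them and whether reads with several matches were split or dropped. Groups came from the sample descriptions. Whole fragments and gene lengths were recovered from the steps of the FPKM for 17928 of 17973 genes with at least 2 values above 0 (within 0.03 fragments). The recovery and the model were tested on simulated data. Genes with a mean of at least 0.5 FPKM were fitted by limma 3.58.1 (R 4.3.3) after a log2 transform of FPKM + 1 (trend, two-sided, Benjamini-Hochberg over all tested genes). P-values set the difference between the groups against the spread between animals within them. Tables were made with Python 3.11.15, pandas 2.3.3 and numpy 2.4.6, and figures with matplotlib 3.10.9.

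The members and gene lists were chosen with earlier results of these data known. Named pathway genes are the most abundant of each list and the called genes with the largest rise and fall, and 3 closest genes are named per member. Alternatives were another pseudocount, filters, scalings, voom and leaving out each animal. Some genes of the lists are not reported here. Of the 145 symbols in the pathway lists, 132 were matched. No sequence or coordinate was used here.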

Additional observations from a re-analysis of the deposited data

How the results depend on the processing

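No other pseudocount, filter, scaling or variance model, and no omission of an animal, changed the sign of UBB, of either UBQLN1 gene, of UBQLN2 or of UBQLNL. RPS27A and UBQLN4 changed sign with Sertoli-centred scaling, to −0.64 and −0.12. With that scaling the log2 ratio was −2.89 for UBB, −2.21 for UBQLN1, −8.72 for the second UBQLN1 gene, 0.08 for UBQLN2 and −8.93 for UBQLNL, all genes had 38 called higher and 10791 lower, and the pathway lists 2 and 129. Median-of-ratios scaling gave −1.34 for UBB, 0.90 for RPS27A, −0.66 for UBQLN1, −6.97 for the second UBQLN1 gene, 1.73 for UBQLN2, 1.5 for UBQLN4 and −7.14 for UBQLNL. Over all genes it called 2655 higher (17.7%) and 4173 lower (27.7%), and in the pathway lists 28 higher. These shifts follow from the scalings, which move every gene of a library by about the same amount. With TPM scaling UBQLN1 stood at −0.03. A pseudocount of 0.1 gave −7.73 for the second UBQLN1 gene, 2.59 for UBQLN2, 2.28 for UBQLN4 and −8.53 for UBQLNL, and voom on the recovered fragments gave −7.89, 2.63, 2.31 and −8.88. With 1 animal left out at a time the values were −0.85 to −0.63 for UBB, 1.39 to 1.60 for RPS27A, −0.05 to −0.04 for UBQLN1, −6.64 to −6.44 for the second UBQLN1 gene, 2.18 to 2.33 for UBQLN2, 2.01 to 2.08 for UBQLN4 and −6.86 to −6.68 for UBQLNL, with 4904 to 5133 of all genes called higher and 3076 to 3192 lower, and 60 to 69 and 23 to 26 in the pathway lists. No paired analysis was possible because the groups share no animal numbers. Depth limits the cattle-yak values of UBQLNL and of the second UBQLN1 gene, which rest on 19 and 35 fragments in 3 libraries.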

Other observations

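Within the cattle-yak, UBQLNL had 10 fragments in TES5, 6 in TES6 and 3 in TES7. Of the 11 round and elongating spermatid markers, 10 had the same order of animals, with TES5 highest and TES7 lowest, and the other, TXNDC2, had 0.266 FPKM in TES5 and was listed at 0 in TES6 and TES7. TNP1, which replaces histones in spermatids, had 44.8, 14.9 and 8.72 FPKM in these animals. Of the 9 spermatocyte markers, 1 (PIWIL1) had this order. The second UBQLN1 gene had 14, 14 and 7 fragments, so TES5 and TES6 did not differ there. The exact 95% Poisson intervals of UBQLNL overlapped between the animals, from 4.80 to 18.39 fragments in TES5 and from 0.62 to 8.77 in TES7. UBB was also highest in TES5 among the cattle-yak, but its lowest value was in TES6, and RPS27A was highest in TES7. The order was seen after the values were known and was not tested.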
